A study of Mus musculus with 8 samples.

Results

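The BCL2 family decides, at the outer membrane of the mitochondrion, whether a cell survives or dies by apoptosis. Its 10 best known members were followed here in naive mouse CD8+ T cells, chosen by gene symbol and by class. They comprise the antiapoptotic genes Bcl2, Bcl2l1 and Mcl1, the pore-forming effectors Bax and Bak1, and the BH3-only genes Bcl2l11, Bad, Bid, Bbc3 and Pmaip1. All 10 symbols were found among 41730 genes in the table, and all 10 passed the filter on low counts that left 10037 genes to test. Pmaip1 did so mainly through 3 RGX-104 libraries.

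The cells were isolated with a magnetic kit for naive CD8+ T cells and cultured for 24 h, either with 2 µM RGX-104 or with its solvent DMSO, 4 libraries each. RGX-104 activates the liver X receptors (LXR), nuclear receptors that switch on genes of cholesterol export and lipid synthesis. As numbered in the labels, replicates 1 to 4 are DMSO and replicates 5 to 8 are RGX-104. The labels give no strain, age or sex, and do not say if replicates were separate animals or separate cultures. P-values therefore rest on a spread between libraries that may be technical.

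In this family, BCL2, BCL-xL (from Bcl2l1) and MCL1 hold the effectors BAX and BAK in check. BH3-only proteins sense stress or loss of growth signals. They bind the antiapoptotic proteins, and some also activate the effectors, which then release cytochrome c and start the caspases. Naive T cells live on signals from interleukin 7 and from self peptides, which act in large part through Bcl2 and Mcl1, while BIM, the product of Bcl2l11, is the main death signal when cytokine is withdrawn.

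Messenger RNA was read at its 3' end, and levels are given as CPM, a gene's share of its library's counts on a common scale, adjusted between libraries by the TMM method and not divided by gene length. Library totals ranged from 16196217 to 28287445 counts, and 9772 to 10990 genes were detected, with DMSO replicates 1 to 3 the lowest at 9772 to 10194. From the zeros among low genes, the libraries were estimated to hold 182352 to 344257 apparent molecules, so that 1 molecule corresponds to 2.90 to 5.48 CPM. As a check of exposure, the LXR targets Abca1 and Srebf1 were higher in all 4 RGX-104 libraries (log2 fold changes of 5.68 ± 0.65 and 2.39 ± 0.16, SE, edgeR adjusted p = 8.64e-05 and 3.45e-08). All 10 CD8 T cell identity genes were detected, summing to 3970 to 4244 CPM under DMSO and 3963 to 4424 CPM under RGX-104. None of the 10 was called. At an unadjusted edgeR p under 0.05, 1 was lower, beside 1.82% of all tested genes. Another 1 had all RGX-104 libraries above all DMSO libraries, beside 2.08%. The 7 B cell markers summed to 43.8 to 193 CPM and 104 to 174 CPM, and the 7 macrophage markers to 11.3 to 30.99 CPM and 8.05 to 24.1 CPM. The 5 stromal markers summed to 64.6 to 125 CPM under DMSO and 65.4 to 117 CPM under RGX-104. Only 1 of these 5 passed the filter on low counts, and Dcn was at 0 in every library. For the 5 CD4 and regulatory T cell markers the sums were 21.5 to 61.9 CPM and 23.6 to 59.9 CPM. Those of the 5 erythroid markers were 5.23 to 53.9 CPM and 5.72 to 22.1 CPM. The 5 natural killer cell markers stood at 0 in all DMSO libraries and at 0 to 2.29 CPM in RGX-104, with Ncr1 at 0 in every library. Ly6g, Mpo, Elane and Camp, of 7 neutrophil markers, were at 0 in every library, and the list summed to 0 to 35.7 CPM under DMSO and 0 to 14.6 CPM under RGX-104.

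No member of the family passed the test of RGX-104 against DMSO. The count was 0 of 10 with edgeR's quasi-likelihood test (adjusted p under 0.05), where 0.11% of all tested genes were called, and also 0 with DESeq2 and with limma-voom, which called 0.409% and 0.139% of all genes. At an unadjusted edgeR p under 0.05, 2 members were higher, Mcl1 and Bbc3, and none was lower, beside 1.98% and 1.82% of all tested genes. Log2 fold changes were above 0 for 6 members and below 0 for 4, beside 50.9% and 49.1% of all tested genes. The same 2 members had all 4 RGX-104 libraries above all 4 DMSO libraries, which held for 2.08% of tested genes, and none lay below, which held for 1.49%. The median log2 fold change of the 10 members was 0.20, against 0.01 over all tested genes. In bulk RNA, fewer cells of a type and less RNA per cell cannot be told apart.

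The promoters of Bbc3 and Mcl1 are shown because these are the 2 members whose groups did not overlap. That of Bcl2l11 is shown because it carries the same forkhead motif as Bbc3. For Bbc3 and Bcl2l11 the window holding the motif was picked, and their other windows lack it. Any link of the motif to the levels was not tested. Each line is a window from 250 bases before to 50 after a transcription start, 5′ to 3′ on the plus strand, from RefSeq on GRCm38.p6. They are chr7:16310011-16310310 (Bbc3, 1 of 3 annotated starts), chr2:128125788-128126087 (Bcl2l11, 1 of 2) and chr3:95658471-95658770 (Mcl1). Capitals mark the forkhead (FOXO) motif GTAAACA on either strand in the first 2 lines, and the GC box GGGCGG, here on the minus strand, in the third.
Bbc3: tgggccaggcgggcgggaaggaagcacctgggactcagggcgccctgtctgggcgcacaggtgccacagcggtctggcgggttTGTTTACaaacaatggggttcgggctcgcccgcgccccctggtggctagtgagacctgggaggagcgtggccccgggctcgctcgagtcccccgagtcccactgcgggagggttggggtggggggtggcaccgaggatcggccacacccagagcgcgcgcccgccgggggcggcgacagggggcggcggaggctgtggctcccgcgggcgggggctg
Bcl2l11: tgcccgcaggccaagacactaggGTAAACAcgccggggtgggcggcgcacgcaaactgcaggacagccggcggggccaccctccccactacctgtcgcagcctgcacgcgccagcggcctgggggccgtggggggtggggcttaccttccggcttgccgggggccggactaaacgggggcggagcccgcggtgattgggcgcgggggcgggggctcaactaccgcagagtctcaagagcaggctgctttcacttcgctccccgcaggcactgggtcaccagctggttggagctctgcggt
Mcl1: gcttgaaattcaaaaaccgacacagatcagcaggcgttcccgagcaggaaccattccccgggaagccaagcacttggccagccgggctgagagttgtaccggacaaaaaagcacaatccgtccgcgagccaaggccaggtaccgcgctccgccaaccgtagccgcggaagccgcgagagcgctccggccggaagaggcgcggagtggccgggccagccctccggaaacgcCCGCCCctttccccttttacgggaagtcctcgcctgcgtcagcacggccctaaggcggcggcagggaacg
The search covered 15 windows for 9 of the 10 members, on both strands. GTAAACA was found in the 2 windows shown, against 3.65% of all 32851 promoter windows. The GC box was found in 10 of 15, against 35.7% of all windows. The direct repeat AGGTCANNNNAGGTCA, the element to which LXR binds with its partner RXR, was in none of the 15 and in 0.0152% of all windows. A single AGGTCA, which is part of that repeat, was in 1 window of Bcl2l1 and in 16.3% of all windows. The STAT motif TTCNNNGAA was in none of the 15 and in 8.30% of all. A match describes letters in a window and not a bound site.

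Bcl2, which encodes the antiapoptotic protein that gave the family its name, was the most abundant member. It was at 1523, 1481, 1669 and 1351 CPM in DMSO replicates 1 to 4 and at 1475, 1361, 1381 and 1465 CPM in RGX-104 replicates 5 to 8. The groups overlapped fully, with the RGX-104 libraries inside the range of the DMSO libraries. The log2 fold change was -0.08 ± 0.09 (SE, edgeR adjusted p = 1.00), with a 95% interval of the fold from 0.824 to 1.08. Larger changes of Bcl2 in either direction lie outside the interval.

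Mcl1 encodes a short-lived antiapoptotic protein that T cells need throughout their life. Its level was 764, 677, 630 and 599 CPM under DMSO and 830, 772, 780 and 779 CPM under RGX-104. All 4 RGX-104 libraries were higher, although the lowest of them exceeded DMSO replicate 1 by 8.45 CPM. The difference was 1.184-fold (95% interval 1.01 to 1.39, log2 fold change 0.24 ± 0.11, unadjusted p = 0.0390), and it did not pass the correction over all genes (edgeR adjusted p = 1.00, DESeq2 adjusted p = 0.370). With RLE scaling in place of TMM, DMSO replicate 1 at 773 CPM lay above the lowest RGX-104 library at 767 CPM. Against DMSO replicate 4 alone, the DMSO library with the most genes detected but also the lowest Mcl1, the log2 fold change was 0.41. That comparison has 1 library in the DMSO arm. Without DMSO replicate 4 the log2 fold change was 0.19, the lowest of the alternatives. With genes detected as a covariate it was 0.35.

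Bcl2l1, whose product BCL-xL protects activated more than resting T cells, was sparse. It was at 14.2, 5.23, 5.599 and 0.504 CPM in DMSO and at 8.05, 14.95, 14.0 and 18.9 CPM in RGX-104. DMSO replicate 1 lay among the RGX-104 libraries, and the other 3 DMSO libraries lay below all of them. These levels correspond to 0.155 to 6.50 apparent molecules per library. The log2 fold change of 1.13 ± 1.07 had a 95% interval from -1.12 to 3.38 (edgeR adjusted p = 1.00), so neither a rise nor a fall of 2-fold was outside it. Against DMSO replicate 4 alone it was 4.78, as that library held 8 counts, and with genes detected as a covariate it was 2.98. Reads at the 3' end do not separate the long from the short splice form of this gene.

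**Figure D1:**
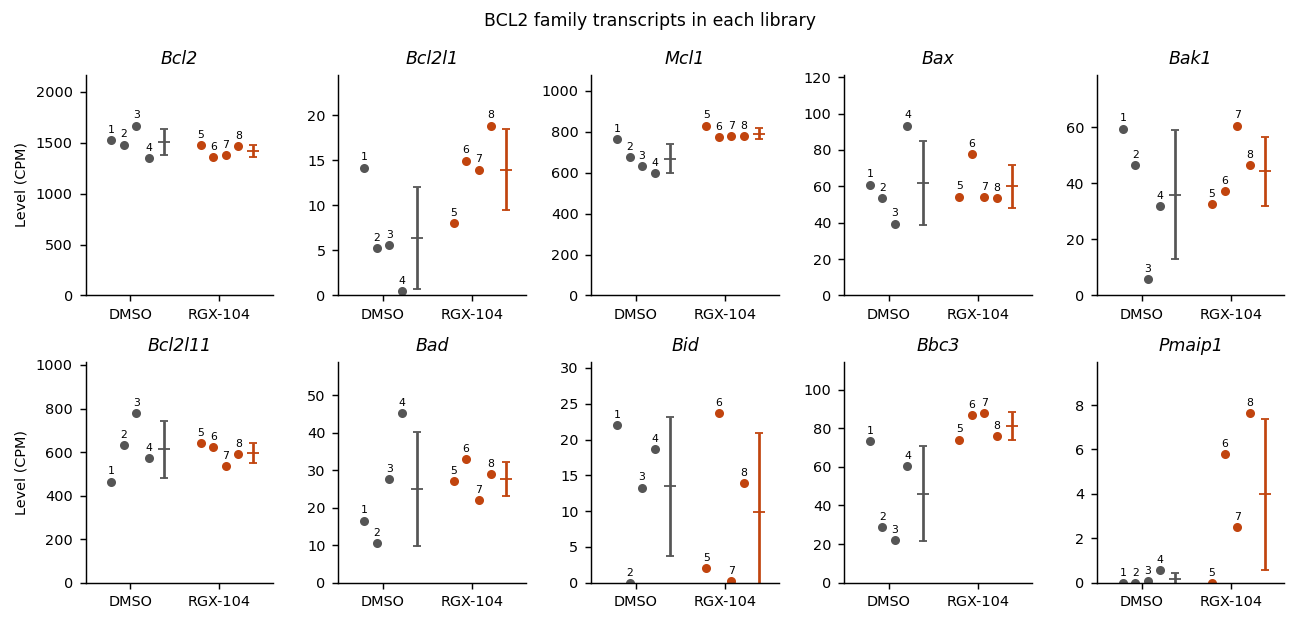
Level of each of the 10 members (CPM, linear axes from 0) in each library, with the replicate number above each point and mean ± SD at the right of each group of 4. The RGX-104 points lie above all DMSO points for Mcl1 (lowest 772 against highest 764 CPM) and Bbc3 (74.1 against 73.2 CPM), and overlap with DMSO for the other 8 members.

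The effectors Bax and Bak1, which form the pores of the mitochondrial membrane, were much lower than Bcl2. Bax was at 60.9, 53.4, 39.5 and 93.4 CPM in DMSO and at 54.4, 77.8, 54.2 and 53.5 CPM in RGX-104. The RGX-104 libraries lay within the DMSO range, and their log2 difference was -0.04 ± 0.31 (edgeR adjusted p = 1.00, 95% interval from -0.69 to 0.60). Its sign turned with limma-voom (0.08) and without DMSO replicate 4 (0.22), the library with the highest Bax.

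Bak1 was at 59.5, 46.4, 5.89 and 31.8 CPM in DMSO and at 32.6, 37.2, 60.6 and 46.6 CPM in RGX-104. Apart from the low DMSO replicate 3, both groups covered the same range. The log2 fold change of 0.30 ± 0.50 (95% interval -0.75 to 1.36, edgeR adjusted p = 1.00) became -0.06 without that library. The gene Ggnbp1 overlaps the 3' end of Bak1 on the opposite strand in GENCODE M21. It was at a mean of 2.16 CPM, here without TMM factors, and no source used here states whether counting took account of strand.

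Bcl2l11, the gene of BIM, was the third most abundant member and the leading BH3-only gene. Its level was 464, 630, 780 and 574 CPM in DMSO and 640, 622, 534 and 592 CPM in RGX-104. The RGX-104 libraries lay inside the wider DMSO range. On the log2 scale RGX-104 differed from DMSO by -0.04 ± 0.14 (edgeR adjusted p = 1.00), with a 95% interval of the fold from 0.795 to 1.20. The sign turned in 4 of 16 alternative settings, with values between -0.15 and 0.10 over all 16.

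Bbc3 encodes PUMA, a BH3-only protein that binds all antiapoptotic members and is induced by p53 and by FOXO factors in cells deprived of cytokine. It was at 73.2, 28.7, 22.1 and 60.3 CPM in DMSO and at 74.1, 86.6, 87.97 and 76.1 CPM in RGX-104. DMSO replicates 2 and 3 were low, while DMSO replicate 1 lay 0.952 CPM below the lowest RGX-104 library. The difference was 1.76-fold (95% interval 1.07 to 2.91, log2 fold change 0.82 ± 0.34, unadjusted p = 0.0283) and did not pass the correction (edgeR adjusted p = 1.00, DESeq2 adjusted p = 0.372). It was 0.58 on the log2 scale without DMSO replicate 3 or with genes detected as a covariate (unadjusted p = 0.0838 and 0.210), and 0.44 against DMSO replicate 4 alone, a comparison with 1 library in the DMSO arm. Its levels correspond to 4.70 to 27.7 apparent molecules per library.

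Bad, a BH3-only protein that growth factor signals keep inactive by phosphorylation, was at 16.6, 10.5, 27.6 and 45.3 CPM in DMSO and at 27.0, 32.99, 22.1 and 29.0 CPM in RGX-104. The DMSO libraries enclosed the RGX-104 libraries on both sides. Bad had a log2 fold change of 0.15 ± 0.51 (edgeR adjusted p = 1.00), and it was -0.70 against DMSO replicate 4 alone, where Bad was highest.

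Bid, which links death receptors to mitochondria once caspase 8 has cut its product, was at 22.0, 0, 13.3 and 18.7 CPM in DMSO and at 2.01, 23.7, 0.184 and 13.9 CPM in RGX-104. Both groups held libraries at or near 0 and libraries near 20 CPM. The log2 fold change of -0.44 ± 1.35 had a 95% interval from -3.27 to 2.38 (edgeR adjusted p = 1.00). Over 16 alternatives it ranged from -1.67 with genes detected as a covariate to -0.03 with limma-voom, and without 1 library from -1.34 (RGX-104 replicate 6) to -0.04 (RGX-104 replicate 7). Bcl2l13, a further family gene at a mean of 6.24 CPM, covers the 3' end of Bid on the opposite strand, so reads of these genes may not have been told apart.

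Pmaip1 encodes NOXA, a small BH3-only protein that binds MCL1. It had 0, 0, 2 and 9 counts in the DMSO libraries and 0, 124, 41 and 129 counts in the RGX-104 libraries, or at most 0.567 CPM against 0, 5.79, 2.52 and 7.65 CPM. In 3 RGX-104 libraries it was above every DMSO library, and RGX-104 replicate 5 was at 0 like 2 of the DMSO libraries. No library held more than 2.64 apparent molecules of it. The log2 fold change of 4.58 ± 2.80 had a 95% interval from -1.29 to 10.5 (unadjusted p = 0.119, edgeR adjusted p = 1.00). Over 15 alternatives the estimate ran from 2.29 to 6.86. It was 6.86 without DMSO replicate 4, 2.81 against that library alone and 2.29 with genes detected as a covariate.

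**Figure D2:**
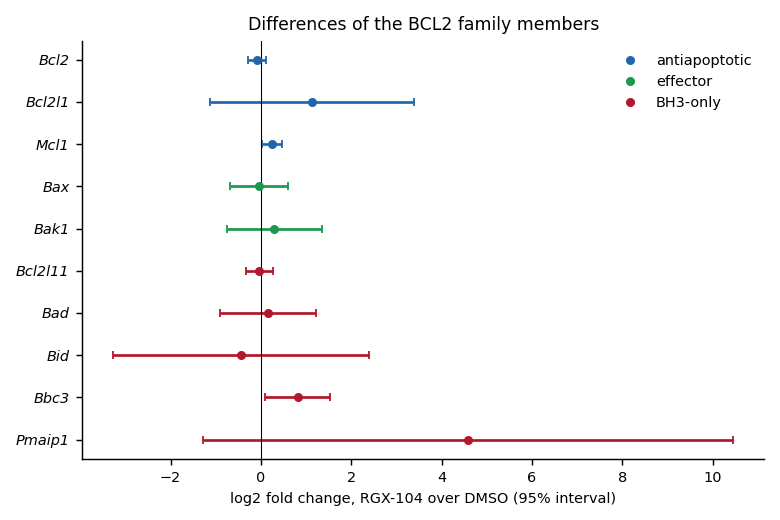
Log2 fold change of RGX-104 over DMSO for the 10 members, with approximate 95% intervals from the edgeR fit and colours for the 3 classes. The intervals are narrow for Bcl2, Mcl1 and Bcl2l11 and wide for Bcl2l1, Bid and Pmaip1, and those of Mcl1 (0.01 to 0.47) and Bbc3 (0.10 to 1.54) lie above 0.

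Seen as a whole, the transcript pool of the family was made up largely of 3 genes. Bcl2, Mcl1 and Bcl2l11 took 90.96% to 96.4% of the summed level of the 10 members in DMSO and 90.8% to 93.7% in RGX-104. The antiapoptotic genes summed to 2180 ± 167 CPM under DMSO and 2225 ± 76.8 CPM under RGX-104 (mean ± SD, n = 4 per group). The effectors summed to 97.7 ± 36.6 and 104 ± 13.4 CPM, and the BH3-only genes to 697 ± 111 and 719.95 ± 52.97 CPM. For each class the ranges of both groups overlapped, and the antiapoptotic share of the pool was 73.3% ± 2.74 and 72.97% ± 1.47. These sums and the ratios below are descriptions without a test, since the members were chosen with earlier results known.

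Within the antiapoptotic class, the balance of Mcl1 and Bcl2 did not overlap between the groups. The log2 ratio of Mcl1 to Bcl2 was -0.996, -1.13, -1.40 and -1.17 in DMSO replicates 1 to 4 and -0.83, -0.82, -0.82 and -0.91 in RGX-104 replicates 5 to 8. All RGX-104 libraries were above all DMSO libraries, and a ratio within a library does not depend on how libraries are scaled. Bcl2 made up 50.8%, 50.5%, 52.3% and 48.7% of the 10-member sum in DMSO and 46.9%, 44.9%, 47.0% and 47.5% in RGX-104, again without overlap. By contrast, the log2 ratio of Bcl2 to its antagonist Bcl2l11 was 1.32 ± 0.27 in DMSO and 1.25 ± 0.11 in RGX-104, with the RGX-104 libraries inside the DMSO range. The ratio of Mcl1 to Bcl2l11 also overlapped, at -0.31 to 0.72 and 0.31 to 0.54. So did the ratios of Bbc3 to Bcl2l11 (-5.14 to -2.67 and -3.11 to -2.60) and of Bax to Bcl2 (-5.40 to -3.85 and -4.78 to -4.13). Mcl1, whose own groups did not overlap in the main fit, enters both its ratio to Bcl2 and the 10-member sum. The separation of that ratio and of the Bcl2 share is therefore not independent of that of Mcl1. The pairs of genes were chosen after their values were seen, and how often other pairs or shares separate the groups was not tested.

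**Figure D3:**
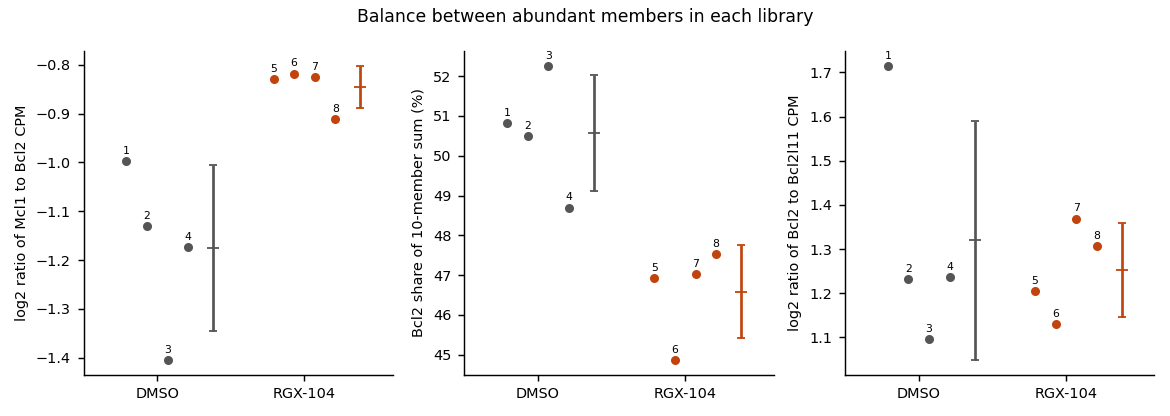
Log2 ratio of Mcl1 to Bcl2 (left), share of Bcl2 in the 10-member sum in percent (middle) and log2 ratio of Bcl2 to Bcl2l11 (right) in each library, with replicate numbers and mean ± SD for each group of 4. The groups are apart in the left and middle panels (-1.40 to -0.996 against -0.91 to -0.82, and 48.7% to 52.3% against 44.9% to 47.5%) and overlap in the right panel.

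Spread differed with the level of the gene and with the group. Over all 8 libraries the coefficient of variation was 7.14% for Bcl2, 11.3% for Mcl1 and 15.2% for Bcl2l11, against 61.3% for Bcl2l1, 83.5% for Bid and 146% for Pmaip1. The RGX-104 libraries had the smaller coefficient of variation for 9 of 10 members, with Bid the exception, and this was so for 64.1% of all tested genes. The Mcl1 values of RGX-104 varied by 3.39% and those of DMSO by 10.7%, and the Bbc3 values by 8.76% and 53.4%. The part of uneven gene detection in this spread was not tested.

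Whether Mcl1 and Bbc3 stayed under an unadjusted p of 0.05 depended on single libraries. The plot of both genes under each setting shows a positive log2 fold change in all 17 fits, from 0.19 to 0.41 for Mcl1 and from 0.44 to 1.13 for Bbc3. The unadjusted p of Mcl1 exceeded 0.05 with RLE scaling (0.0550), without a filter (0.0677) and when any library but DMSO replicate 1 was left out (0.0572 to 0.110). The p of Bbc3 exceeded 0.05 with the covariate, and also without DMSO replicates 2 or 3 or RGX-104 replicates 6 or 7 (0.0622 to 0.0838). The fit of Bbc3 against DMSO replicate 4 alone, with the lowest log2 fold change (0.44), is left out of this list.

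**Figure D4:**
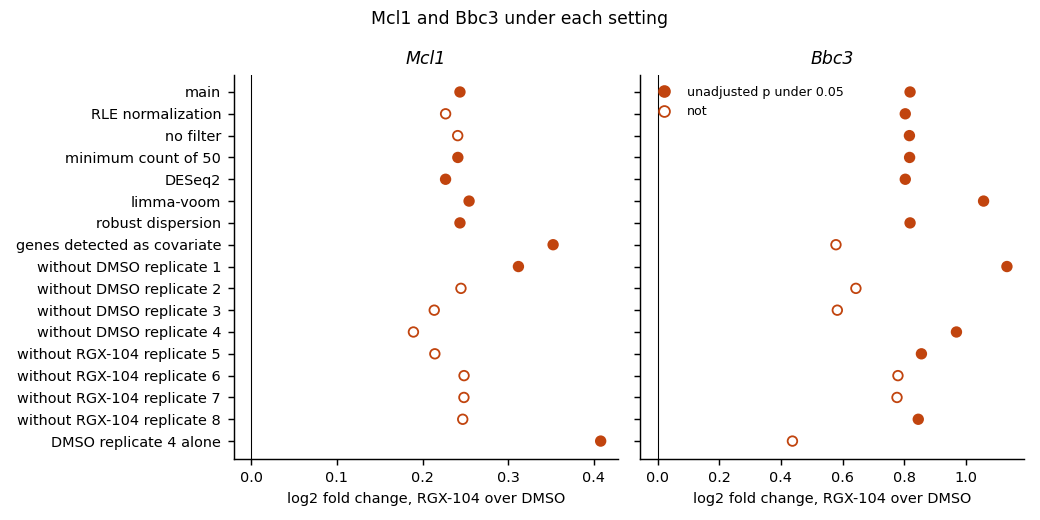
Log2 fold change of RGX-104 over DMSO for Mcl1 (left) and Bbc3 (right) in the main fit and 16 alternatives, filled where the unadjusted p was under 0.05. All points lie above 0, at 0.19 to 0.41 for Mcl1 and 0.44 to 1.13 for Bbc3, and no point passed the correction over all genes. In the lowest row the DMSO arm holds 1 library, so its spread comes from the RGX-104 libraries alone.

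Genes around the family were taken from 8 lists of the death and survival pathways, with 78 of 96 genes tested. None passed over all genes with edgeR. At an unadjusted p under 0.05, 1 was higher and 3 were lower, or 1.28% and 3.85% of those tested beside 1.98% and 1.82% of all genes. Groups did not overlap for 5 of the 78 genes, 2 higher and 3 lower, beside 2.08% and 1.49% of all tested genes. Those higher were Birc3 and Foxo3, and those lower were Il7r, Ywhaz and Usp9x. The median log2 fold change of the 78 genes was 0.07.

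Of 15 other BCL2 family genes 7 were tested, 4 above 0 and 3 below, and 5 had no count in any library. The highest of them were Bnip3l, a receptor for the removal of mitochondria, at 41.3 ± 12.7 CPM without and 38.2 ± 3.36 CPM with the agonist, and Bcl2l12 at 15.02 ± 3.54 and 20.3 ± 10.7 CPM. Downstream, 12 of 13 genes of the apoptosome and caspases were tested, 5 above 0 and 7 below, with none at an unadjusted p under 0.05. Aifm1, a mitochondrial flavoprotein, was at 52.2 ± 32.0 and 31.3 ± 10.02 CPM, and Dffb, the nuclease that cuts DNA in apoptosis, at 44.9 ± 11.7 and 39.5 ± 5.66 CPM. Tmbim6 (555 ± 57.7 and 592 ± 22.5 CPM) and Vdac2 (152 ± 32.2 and 159.7 ± 20.1 CPM), the second of which holds BAK at the membrane, also overlapped between the groups. Both come from the list of outer mitochondrial membrane partners, a name that does not place each product there. None of the 5 listed partners had an unadjusted p under 0.05.

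Among the inhibitors of apoptosis, 5 of 9 were tested. Birc3, a ubiquitin ligase of NF-κB signalling that restrains cell death, was at 17.2, 19.0, 21.4 and 30.9 CPM in DMSO and at 44.8, 46.7, 31.4 and 53.8 CPM in RGX-104. All RGX-104 libraries were higher, and its log2 fold change of 0.998 ± 0.40 had an unadjusted p of 0.0226 (edgeR adjusted p = 1.00). Birc6 and the caspase inhibitor Xiap were at 314 ± 70.6 and 122 ± 47.6 CPM in DMSO and at 270.3 ± 45.2 and 115 ± 25.3 CPM in RGX-104. In the death receptor pathway 9 of 10 genes were tested, 7 above 0 and 2 below, with none at an unadjusted p under 0.05. Casp8 was at 128 ± 26.2 and 132 ± 8.75 CPM and its inhibitor Cflar at 84.4 ± 25.6 and 77.2 ± 13.6 CPM, and Fasl had no count.

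The survival signal upstream of Bcl2 and Mcl1 held 16 tested genes, 11 above 0 and 5 below. Il7r, the interleukin 7 receptor chain that sustains Bcl2 in naive T cells, was at 450.5, 354, 388 and 370 CPM in DMSO and at 296, 294, 294 and 352 CPM in RGX-104. All RGX-104 libraries were lower, the highest of them just below the lowest DMSO library, with a log2 fold change of -0.34 ± 0.13 (unadjusted p = 0.0213, edgeR adjusted p = 1.00). Pim1, a survival kinase, and Il2rg, the shared receptor chain, were at 1348 ± 132 and 1123 ± 98.1 CPM in DMSO and at 1306 ± 97.0 and 1181 ± 133 CPM in RGX-104. Foxo3, a forkhead factor known to act on Bbc3 and Bcl2l11 and named after its values were seen, was at 26.2 ± 9.81 and 42.7 ± 1.78 CPM without overlap (log2 fold change 0.70 ± 0.40, unadjusted p = 0.0977). Its paralog Foxo1, also outside the naming rule, was at 255.7 ± 31.2 and 255.8 ± 23.7 CPM with overlap.

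Of 13 genes that act on the stability or binding of MCL1, BIM and BAD proteins, all were tested, and 2 were lower at an unadjusted p under 0.05. Ywhaz, an adaptor that holds phosphorylated BAD in the cytosol, was at 378, 340, 293 and 251 CPM in DMSO and at 196, 235, 220 and 208 CPM in RGX-104. The groups were apart, with a log2 fold change of -0.56 ± 0.16 that did not pass with edgeR (adjusted p = 0.872) and passed with DESeq2 (adjusted p = 0.0254), which called 0.409% of its genes. Usp9x, a deubiquitinase that stabilises MCL1, was at 57.9 ± 13.4 CPM without and 30.2 ± 8.87 CPM with the agonist, also without overlap (-0.94 ± 0.35, unadjusted p = 0.0149, edgeR adjusted p = 1.00). Gsk3b and Ywhab were at 294 ± 57.2 and 272 ± 72.2 CPM in DMSO and at 284 ± 46.4 and 275 ± 57.1 CPM in RGX-104. Of 15 genes of p53 and its targets 11 were tested, with none at an unadjusted p under 0.05. Trp53 itself was at 155 ± 41.5 and 149 ± 32.6 CPM and its regulator Mdm4 at 249 ± 64.0 and 267 ± 26.2 CPM.

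**Figure D5:**
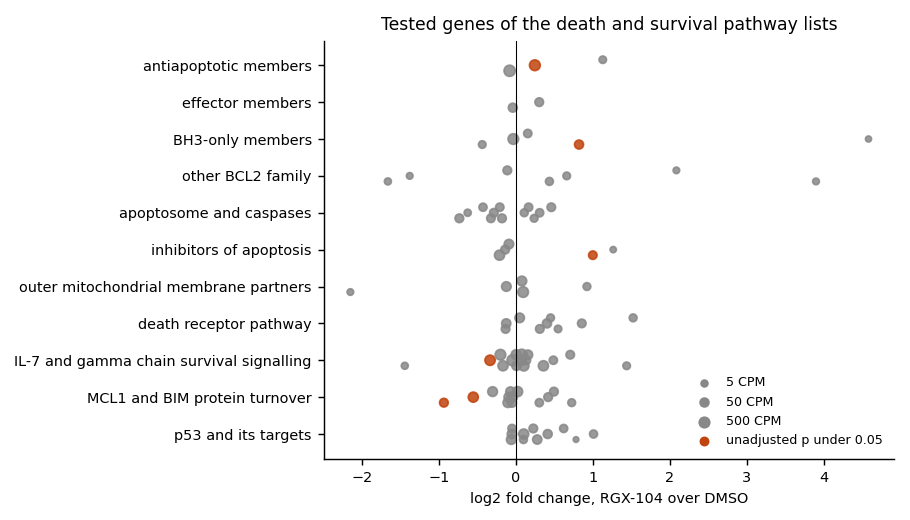
Log2 fold change of RGX-104 over DMSO of each tested gene in the 3 classes of members and 8 related lists, with larger points for higher mean CPM and orange for an unadjusted p under 0.05. The 6 orange points are Mcl1, Bbc3 and Birc3 above 0 and Il7r, Usp9x and Ywhaz below 0, and the widest values belong to sparse genes such as Pmaip1 at 4.58.

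The genes whose log2 level followed Mcl1 most closely over the 8 libraries, among 3549 others at a mean of 50 CPM or more, were Nfkbiz (Pearson r = 0.96), Gnai3 (0.95), Pum2 (0.95), Psmc4 (0.94) and Hspa5 (0.92). For Bcl2 they were Bptf (0.93), Pag1 (0.91), Gtpbp2 (0.88), Nol6 (0.85) and Sec14l1 (0.85). These are the highest of many values over 8 libraries that share depth and detection, given as a description. Every r in this paragraph spans both groups, so a difference between the groups enters it. Among the 5 members at 50 CPM or more, r of the 10 pairs ranged from -0.82 for Bcl2 with Bax to 0.68 for Mcl1 with Bbc3, the 2 members whose groups did not overlap. It was -0.70 for Bcl2 with Bbc3, -0.67 for Bcl2l11 with Bbc3, 0.53 for Bax with Bbc3, 0.45 for Bcl2 with Bcl2l11, -0.45 for Bax with Bcl2l11, -0.35 for Mcl1 with Bcl2l11, -0.17 for Bcl2 with Mcl1 and -0.14 for Mcl1 with Bax.

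The members are all protein-coding genes, at chromosome 1, 106538178 to 106714274 (Bcl2), chromosome 2, 152780668 to 152831728 (Bcl2l1) and 128126038 to 128162547 (Bcl2l11), chromosome 3, 95658788 to 95663176 (Mcl1), chromosome 6, 120891930 to 120916853 (Bid) and chromosome 7, 45461697 to 45466898 (Bax) and 16308393 to 16318205 (Bbc3). Bak1 lies at chromosome 17, 27019810 to 27029009, Pmaip1 at chromosome 18, 66458533 to 66465565, and Bad at chromosome 19, 6941861 to 6951899 (GENCODE M21 on GRCm38, 1-based). Of the 10 members, Bak1 and Bid have a 3' end inside another gene.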

How the data were processed

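Messenger RNA of 8 libraries, 4 per group, was measured with a QuantSeq 3' kit, per the labels' protocols. The deposited values are raw read counts per gene symbol, per the file headers and the values. The submitters' processing notes list STAR 2.7.8a, R 4.1.0, DESeq2 1.4 and GRCm38, with no role for any. How reads were counted, with which annotation and strand setting, and whether molecular identifiers were used is not given in the sources used here, so the counts may include copies of 1 molecule.

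The main test was that of edgeR 4.0.16 under R 4.3.3, quasi-likelihood test, TMM scaling, group as the only term, filterByExpr with a minimum count of 10, and Benjamini-Hochberg adjustment over 10037 genes, called under 0.05. DESeq2 1.42.0 and limma 3.58.1 (voom) were alternatives. The SE was approximated as the size of the log2 difference over the root of F, and 95% intervals rest on it. CPM were computed with TMM factors. Apparent molecules are the count at which Poisson sampling would leave as many zeros as were seen among genes at 2 to 20 CPM in the other 7 libraries. The fit was tested on simulated data. No 2 libraries held identical values. Total counts ranged from 16196217 to 28287445.

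The members and lists were chosen with earlier results of these data known. Named were all 10 members, up to 3 called genes per direction of each list, otherwise the 2 with the highest mean and those with an unadjusted p under 0.05, and for the 2 most abundant members the 5 genes most like them. RefSeq promoter windows (GRCm38.p6) covered 9 of 10 members.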

Additional observations from a re-analysis of the deposited data

Results flagged for a closer look

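Among 44 groups of 4 libraries examined for members, sums and ratios, 5 had 1 library well apart from the rest, a pattern that chance gives in about 1 in 20 groups. Mcl1 stood at 830 CPM in RGX-104 replicate 5, against 772 to 780 CPM in the other RGX-104 libraries. Bax stood at 77.8 CPM in RGX-104 replicate 6, against 53.5 to 54.4 CPM, and the log2 ratio of Bax to Bcl2 in that library was -4.13, against -4.78 to -4.67. The log2 ratio of Mcl1 to Bcl2 was -0.91 in RGX-104 replicate 8, against -0.83 to -0.82. In DMSO replicate 4, Pmaip1 was at 0.567 CPM, while the rest of its group held 0 to 0.0817 CPM.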

How the results depend on the processing

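No member was called in the main fit or in any of 16 alternatives, where the fit against DMSO replicate 4 alone takes its spread from the RGX-104 libraries. The lowest adjusted p of a member in any of them was that of Mcl1, 0.370 with DESeq2. Over all genes 11 were called in the main fit, 45 with DESeq2, 7 with genes detected as a covariate, and 8 to 14 when 1 library was left out. Mcl1, Bbc3, Bcl2l1, Pmaip1 and Bid kept their direction in every alternative that tested them; Pmaip1 was not tested at a minimum count of 50. The direction turned for Bcl2 against DMSO replicate 4 alone (0.0808), for Bax with limma-voom (0.0813), for Bcl2l11 with the covariate (0.0093) and against DMSO replicate 4 alone (0.0660), and for Bad in the same settings (-0.38 and -0.70). With 1 library left out, Bax ranged from -0.21 to 0.22, Bak1 from -0.0604 to 0.66, Bcl2l11 from -0.15 to 0.10 and Bad from -0.11 to 0.60. The cause was not tested. Members whose groups did not overlap numbered 2 in the main fit, 2 without TMM factors and 1 with RLE factors. The shares of all tested genes were 3.58%, 3.57% and 3.56% in that order. Against DMSO replicate 4 alone they numbered 7, where 39.6% of all tested genes did not overlap; these 3 settings were chosen after seeing the data. No paired analysis was possible because library numbers are unique across the groups. At 1 apparent molecule per 2.90 to 5.48 CPM, the values of Bcl2l1, Bid and Pmaip1 rest on few molecules.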
